A study of Mus musculus with 16 samples.

Results

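Lipoprotein lipase, the proteins that carry fatty acids into and through the cell, and a receptor that senses them were followed in mouse BAT, WAT and liver with and without cold. The 10 genes were Lpl, Gpihbp1, Cd36, Fabp1, Fabp3, Fabp4, Fabp5, Slc27a1, Slc27a2 and Ffar4 (older symbol Gpr120 or O3far1) (a list drawn up by name with earlier results of these data known), out of 16773 genes named on the array. They had 14 probes out of 46643. RNA came from female C57BL/6 mice, housed singly, which spent their last 24 h at 8°C after 48 h at 22°C (cold) or stayed at 22°C for all 72 h (room temperature). BAT and WAT were each measured on 3 arrays per temperature and liver on 2. Within a tissue the methods describe a separate animal for each array, but 1 set of mice per temperature gave all 3 tissues. Arrays of different tissues can therefore share an animal, which the labels do not show and the tests between tissue labels leave out. The methods name no allele or treatment other than the temperature.

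Fatty acids can reach a tissue as triglyceride within lipoproteins. Lipoprotein lipase, made by fat and muscle cells and held on the capillary wall by Gpihbp1, releases them. CD36 and the transport proteins of the Slc27 family take them up, and the Slc27 proteins also activate them. The small binding proteins of the Fabp family carry them in the cytosol. Ffar4 is a cell surface receptor for long-chain fatty acids that is known from adipose tissue and gut. Brown fat burns fatty acids for heat, and white fat and liver supply them to the rest of the animal during cold.

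The marker genes did not follow 2 of the tissue labels. On the 6 arrays labelled WAT, Adipoq, which encodes the fat cell hormone adiponectin, read 12.9 to 65.7 signal units, and 13 hepatocyte markers summed to 86370 to 93630 units. On the 4 arrays labelled liver, Adipoq read 8151 to 18483 units, and the hepatocyte markers summed to 318.3 and 3474 units in the cold and to 55330 and 82990 units at room temperature. The 6 BAT arrays had Ucp1, the uncoupling protein of brown fat, at 11788 to 15527 units, and also 11 of 12 skeletal muscle marker probes detected. Replicate 2 of labelled liver in the cold stood apart, with Ucp1 at 12928.3 units against 490.8 to 1774.2 on the other 3 arrays labelled liver. The arrays are therefore named by label, and none was regrouped or left out. Each array had 11915 to 17399 probes detected, which here means a detection score of at least 0.95.

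Of the 14 probes, 12 reached a score of 0.6 on 2 or more arrays and were tested with the 39730 probes that did so, and they represent 9 of the 10 genes. Values given as signal are the deposited background-subtracted units, and log2 values are after normexp background correction and quantile normalization. The Fabp1 probe never exceeded 6.0 units on any array and was not tested, and the first Lpl probe never exceeded 4.1 units while the second read 96.0 to 14403.4 units. The Cd36 probe was detected on 2 arrays only, both labelled liver in the cold, and never exceeded 22.7 units, and the Fabp4 probe ranged between 1.6 and 32.9 units. The albumin probe behaved in the same way, at -8.7 to 12.5 units on every array, including those where the hepatocyte gene Hpx read up to 17096.4 units. Low readings of these probes thus say nothing on the amount of transcript.

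**Figure D1:**
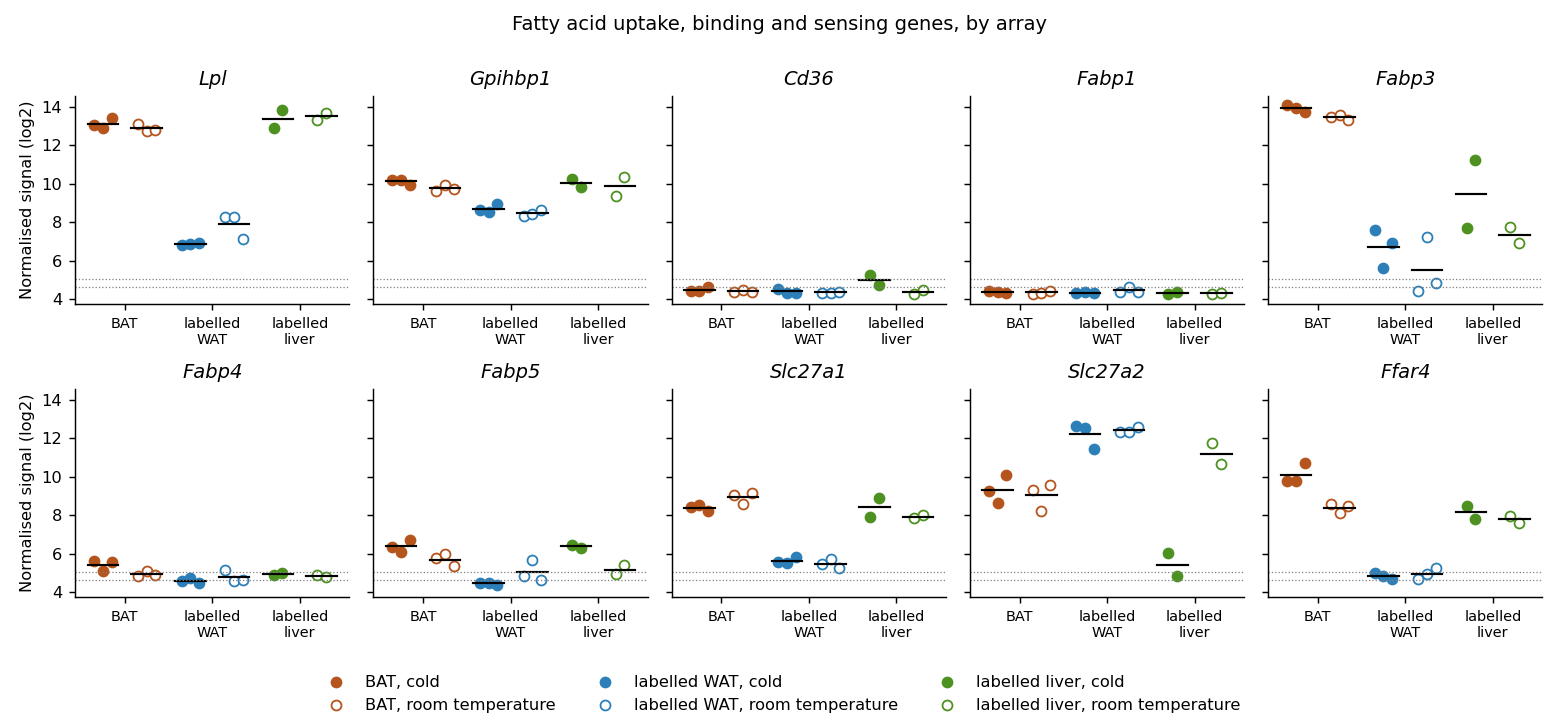
Normalised signal (log2) of each gene's brightest probe on all 16 arrays, by tissue label, with filled points for cold, open points for room temperature and a bar for the group mean. The dotted lines at 4.64 and 5.05 span the lowest value called detected on the 16 arrays. Lpl, Slc27a1 and Ffar4 were lower on every array labelled WAT than on any other array, and Slc27a2 was low on both arrays labelled liver in the cold.

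Cold was first compared with room temperature in BAT, the tissue that makes heat. The fatty acid receptor gene Ffar4 was the 1 member of the 9 tested that passed the test there (adjusted p under 0.05 over all probes), and it was higher in the cold. In all, 0.639% of probes passed in BAT, and 0.3% passed with a higher value. The median difference of the 9 members was 0.35 on the log2 scale, a description with no test. The median over all probes was 0.005, but many of these are dim, as 57.5% of all deposited signals lay under 5 units. The 2 medians are therefore not of probes alike in brightness. Ffar4 read 852.9, 855.4 and 1664.0 units on the cold arrays, against 369.5, 257.5 and 344.9 units at room temperature. Every cold array lay above every room temperature array, and the third cold array read highest. The difference was 1.70 ± 0.27 (log2, SE, n = 3 arrays per group), a 3.24-fold rise (limma, adjusted p = 0.0173). The call was lost without replicate 1, 2 or 3 of BAT at room temperature (adjusted p of 0.053, 0.0524 and 0.0616, at differences of 1.80, 1.55 and 1.75). With all BAT arrays it was lost with no background correction (0.165), with the authors' value table (0.168), in a fit of the BAT arrays alone (0.0777), without the arrays labelled WAT (0.0952) and by the methods' t-test after adjustment (0.376). In whole tissue, more cells of a type and more RNA per cell cannot be told apart. Among the markers, 2 of 10 brown adipocyte genes were higher and 5 of 11 hepatocyte genes lower on the cold BAT arrays. None of 11 adipocyte genes passed (median difference 0.10), nor did any gene of the other marker lists. Ucp1 overlapped, at 11788 to 15527 units in the cold and 11874.8 to 14892.7 units at room temperature. The part of these markers in the Ffar4 result was not tested.

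The 250 bases before the Ffar4 start site are shown because this is the member that rose in BAT. They lie at chr19:38096829-38097078 on the + strand (RefSeq, GRCm38.p6), with matches to any of 4 motifs to be set in capitals.
Ffar4: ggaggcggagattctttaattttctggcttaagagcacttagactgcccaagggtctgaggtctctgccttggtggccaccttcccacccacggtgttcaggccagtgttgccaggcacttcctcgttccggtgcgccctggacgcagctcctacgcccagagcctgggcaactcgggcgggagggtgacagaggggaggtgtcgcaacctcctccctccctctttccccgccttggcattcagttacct
The motifs were searched on both strands over the 250 bases before and the 50 after the start. The TATA box motif TATAAA is held by 13.6% of 32851 promoters of this length. The CCAAT box is held by 37.4% of them. The core site of many nuclear receptors, AGGTCA, is held by 16.3%. Its direct repeat with 1 base between, the DR1 element, which allowed any base at the fourth place of each copy and can overlap the core site, is held by 0.381%. Ffar4 held none of them.

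The other members in BAT did not pass the test. The lipase gene Lpl read 8595.3, 7590.9 and 11361.5 units in the cold and 8342.7, 6984.0 and 6973.9 units at room temperature, and these arrays overlapped (0.25 ± 0.30 log2, 95% interval -0.40 to 0.91, adjusted p = 0.937). Gpihbp1, its capillary anchor, had differences of 0.35 ± 0.22 by its brighter probe and 0.58 ± 0.22 by the other (adjusted p = 0.767 and 0.405). The cold arrays of the dimmer probe, at 727.5 to 1058.9 units, all lay above those at room temperature, at 561.1 to 668.3 units, whereas arrays of the brighter probe overlapped. How many of all probes kept their groups apart was not counted. A lack of overlap is therefore given here and elsewhere as description, not as support for a change.

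Fabp3, the heart and muscle type of the binding proteins, was among the brightest probes on BAT arrays. It read 18006.2, 15433.5 and 13679.2 units in the cold, against 11014.7, 12042.5 and 9745.2 units at room temperature. The groups did not overlap, at a difference of 0.47 ± 0.86 (adjusted p = 0.974). The wide error comes from pooling the spread over all groups, and a fit of the BAT arrays alone gave 0.47 ± 0.12 with an adjusted p of 0.178, which also missed the threshold. The brightest probe of the first cold array read 21572.2 units, so Fabp3 lay close to the top of the scale. The skeletal muscle markers, which were high on these arrays, summed to 35500 to 49810 units in the cold and to 48580 to 72040 units at room temperature. These sums overlapped between the temperatures, and their part in the Fabp3 values was not tested.

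Among the remaining binding proteins in BAT, Fabp5 read 65.5, 53.0 and 90.0 units in the cold and 38.6, 46.6 and 25.5 units at room temperature (0.70 ± 0.25, adjusted p = 0.392). Fabp4, the adipocyte type, read 18.2 to 32.9 units in the cold and 12.2 to 17.9 units at room temperature (0.49 ± 0.17, adjusted p = 0.335). In both the cold arrays lay above those at room temperature. Slc27a1, the transport protein of muscle and fat, went the other way, at 329.9, 351.7 and 277.8 units in the cold and 517.1, 374.2 and 560.5 units at room temperature (-0.56 ± 0.22, adjusted p = 0.477). Slc27a2, the transport protein and acyl-CoA synthetase of liver and kidney, read 586.6, 378.3 and 1063.6 units in the cold and 619.3, 279.6 and 743.0 units at room temperature by its brighter probe (0.29 ± 0.49, adjusted p = 0.971). Its arrays overlapped, while the hepatocyte markers summed to 156.4 to 654.9 units on the cold BAT arrays and to 3497 to 7094 units at room temperature.

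**Figure D2:**
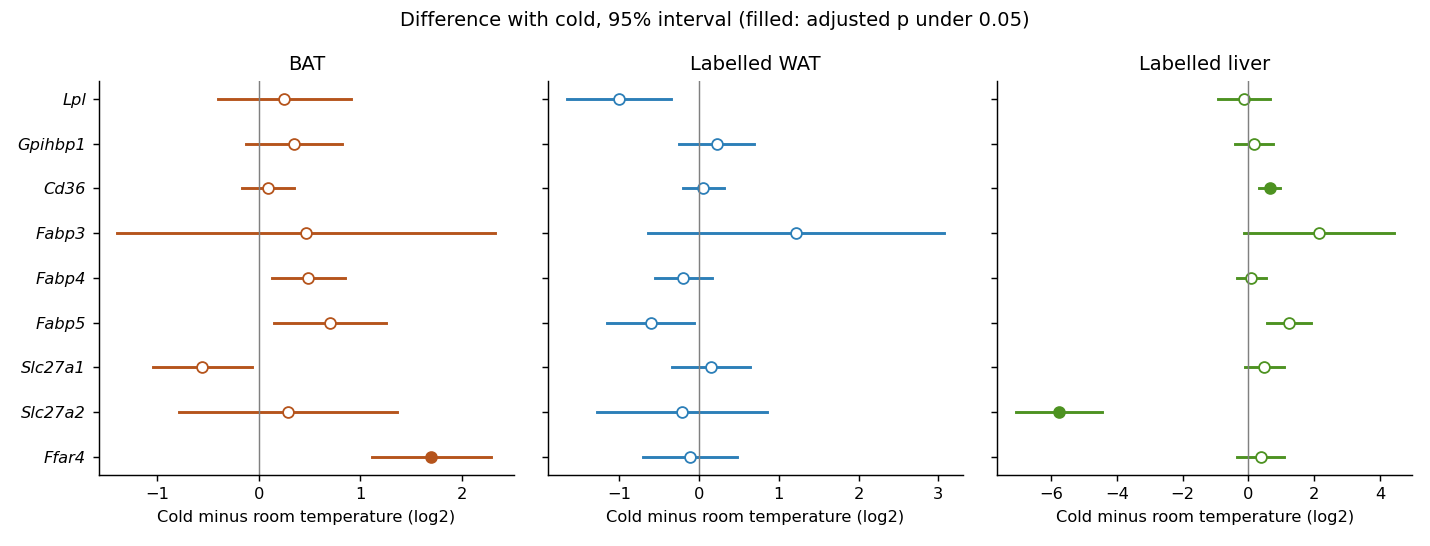
Difference between cold and room temperature (log2) of the 9 tested genes within each tissue label, with the 95% interval of the fit as a line and a filled point where the adjusted p was under 0.05. Ffar4 stands at 1.70 in BAT and Slc27a2 at -5.77 in labelled liver, and the 3 panels have different horizontal scales.

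Other genes of the pathway that changed in BAT were a protease gene and a pair of metabolite receptors. Of 12 other receptors and sensors of fatty acids and related metabolites, all tested, 0 were higher and 2 were lower in the cold. These were Hcar2, a receptor for hydroxybutyrate and niacin that restrains lipolysis, and Hcar1, the lactate receptor of fat cells that acts likewise. Hcar2 read 14.6, 10.5 and 8.5 units in the cold, against 85.9, 61.9 and 125.1 units at room temperature (-1.89 ± 0.21, adjusted p = 0.00305). Hcar1 read 32.1, 46.8 and 26.7 units in the cold, against 174.5, 92.8 and 227.2 units at room temperature (-1.77 ± 0.28, adjusted p = 0.0175). In both genes the groups did not overlap, and the change ran opposite in sign to that of Ffar4. Hcar2 was not detected on cold replicates 2 and 3 (scores of 0.92 and 0.896), so the size of its fall is poorly determined. Other settings and fits without single arrays were tried for the members only, not for these or the other pathway genes. The genes are close relatives, and cross-hybridisation of their probes was not tested.

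Of 8 tested genes of lipase processing and lipoprotein handling, 1 was higher in the cold in BAT and 0 were lower. This was Furin, a protease that cleaves many secreted proteins, lipoprotein lipase among them, at 145.5, 130.8 and 129.9 units in the cold, against 54.5, 58.1 and 63.3 units at room temperature (1.03 ± 0.20, adjusted p = 0.0463). None of 15 tested genes of fatty acid transport and activation and none of 9 other lipid binding proteins passed in BAT. The medians of these 4 lists lay between -0.10 and 0.04 on the log2 scale, near the 0.005 of all probes.

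**Figure D3:**
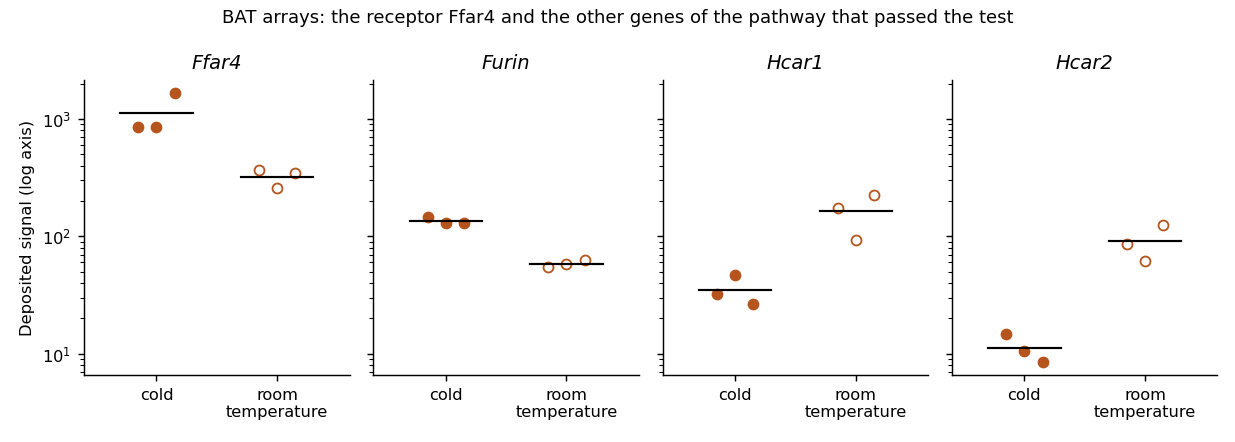
Deposited signal on a log axis of Ffar4 and of Furin, Hcar1 and Hcar2 on the BAT arrays, with 3 arrays in the cold (filled) and 3 at room temperature (open) and a bar for the mean. Cold arrays lay above room temperature arrays for Ffar4 and Furin and below them for Hcar1 and Hcar2.

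On the arrays labelled liver, 2 of the 9 members passed, Slc27a2 lower and Cd36 higher in the cold, where 2.59% of all probes passed. The fall of Slc27a2 was the largest difference of any member in any cold comparison. It read 49.3 and 12.0 units in the cold, against 3340.6 and 1574.7 units at room temperature, a difference of -5.77 ± 0.60 (log2, SE, n = 2 arrays per group) or 54.6-fold (limma, adjusted p = 9.2e-05). The second probe of the gene gave 33.4 and 8.4 units in the cold, against 2637.7 and 1226.2 units at room temperature (-5.67 ± 0.57, adjusted p = 6.01e-05). Both probes thus put each cold array far under each room temperature array. The adjusted p rests on the spread shared with the other groups. A fit of these 4 arrays alone gave an adjusted p of 0.22 at the same difference, and the methods' t-test 0.68 after Benjamini-Hochberg adjustment.

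The hepatocyte markers moved with Slc27a2 on these arrays. Of the 13, 11 were tested and 9 were lower in the cold, with a median difference of -5.37, and their sum was 318.3 and 3474 units in the cold against 55330 and 82990 units at room temperature. Hpx, which encodes the haem carrier haemopexin of plasma, read 131.0 and 13.0 units in the cold and 13673.6 and 6794.6 units at room temperature. Their part in the Slc27a2 result was not tested. Neither cold nor room temperature arrays of this label lacked fat cell markers.

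**Figure D4:**
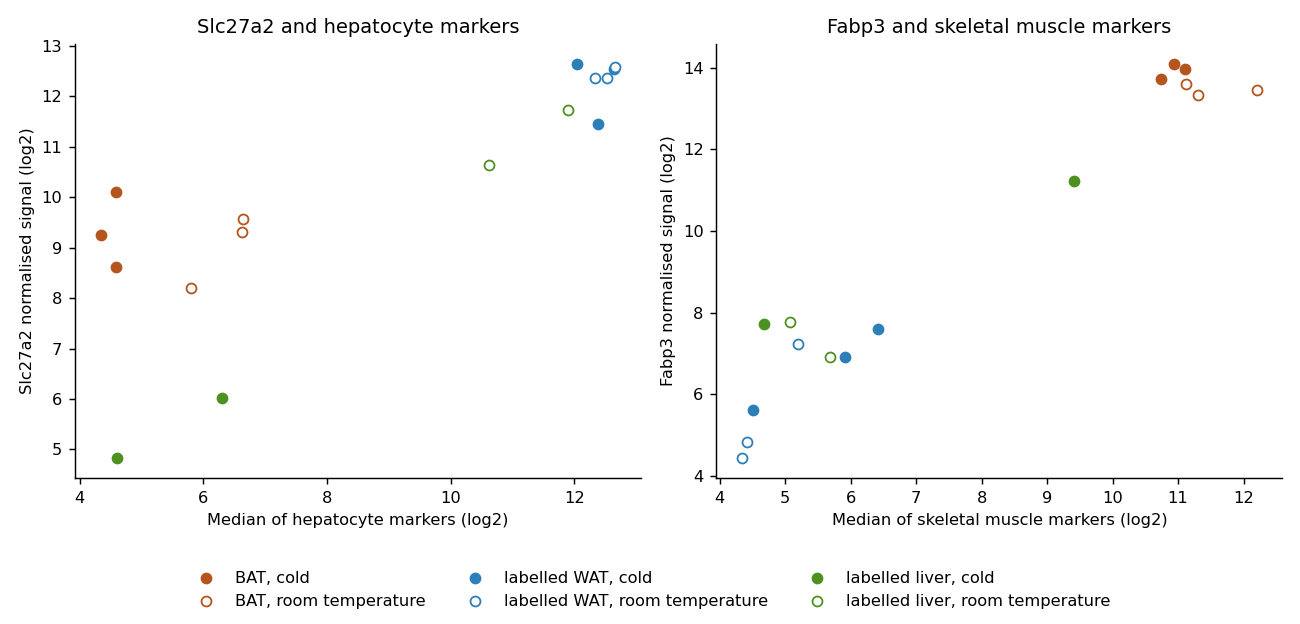
Left, normalised signal of Slc27a2 against the median of the hepatocyte markers, and right, Fabp3 against the median of the skeletal muscle markers, on each of the 16 arrays (all axes log2, filled for cold, open for room temperature). On BAT arrays the hepatocyte median was lower in the cold while Slc27a2 stayed between 8 and 11, and on arrays labelled liver both were lower in the cold.

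The 250 bases before the start of Slc27a2 are given because this gene had the largest difference with cold, at chr2:126552774-126553023 on the + strand (RefSeq, GRCm38.p6).
Slc27a2: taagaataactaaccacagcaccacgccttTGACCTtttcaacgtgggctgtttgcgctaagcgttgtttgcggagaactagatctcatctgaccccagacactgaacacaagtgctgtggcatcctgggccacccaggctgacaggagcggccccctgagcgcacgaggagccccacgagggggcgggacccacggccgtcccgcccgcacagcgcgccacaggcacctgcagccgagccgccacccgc
The capitals mark AGGTCA on the opposite strand, from position -220 to -215 counted from the start site, a motif held by 16.3% of promoters. Of the 6 members with a promoter in the table, Fabp1 alone held the DR1 element, from -67 to -55 on the opposite strand, and its probe was not detected on any array.

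Cd36, the scavenger receptor that takes up long-chain fatty acids, read 22.7 and 10.0 units on the arrays labelled liver in the cold, against -13.0 and 2.1 units at room temperature. The fitted difference was 0.64 ± 0.14 (limma, adjusted p = 0.0349). No room temperature array detected the probe, so the fold is a bound against the dimmest detected value of those arrays, at least 1.21-fold higher. The call was lost in 9 of the 16 fits that left out an array. Without replicate 1 of labelled liver in the cold the difference was 0.39 (adjusted p = 0.201), and without replicate 1 at room temperature it was 0.52 (adjusted p = 0.359).

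Fabp5 missed the threshold on these arrays, at 72.6 and 62.7 units in the cold, against 14.0 and 26.4 units at room temperature (1.23 ± 0.31, adjusted p = 0.0622). Fabp3 read 193.6 and 2399.9 units in the cold and 201.7 and 105.3 units at room temperature (2.13 ± 1.05, adjusted p = 0.482). The high value was that of replicate 2, the array with Ucp1 at 12928.3 units and with skeletal muscle markers that summed to 18490 units, against 875.8 to 1410 units on the other arrays labelled liver. Without this array the Fabp3 difference was 0.37. Lpl read 8146.6 and 14403.4 units in the cold and 10348.8 and 12664.4 units at room temperature, and these overlapped (-0.13 ± 0.37, 95% interval -0.93 to 0.67). Slc27a1 (0.49 ± 0.27), Ffar4 (0.37 ± 0.33), Gpihbp1 (0.17 ± 0.27) and Fabp4 (0.09 ± 0.20) also did not pass.

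Other genes of the pathway that passed on the arrays labelled liver were all lower in the cold. Of 8 genes of lipase processing and lipoprotein handling, 2 were lower, namely Apoc3, an inhibitor of lipoprotein lipase (-7.18 ± 0.63, adjusted p = 1.66e-05), and Apoa5, an activator of the lipase (at least 5.22-fold lower, adjusted p = 0.00153). Apoc3 read 230.6 and 24.6 units in the cold, against 17085.5 and 12560.5 units at room temperature. Of 15 genes of transport and activation, 2 were lower, Slc27a5, the bile acid and fatty acyl-CoA ligase of liver (-6.23 ± 0.44, adjusted p = 2.74e-06), and Got2, the mitochondrial aspartate aminotransferase (-2.33 ± 0.25, adjusted p = 1.28e-04). Slc27a5 read 29.7 and 3.9 units in the cold and 3698.2 and 1514.3 units at room temperature. The hepatocyte markers moved with these genes as they did with Slc27a2, and 0 members of the other lists passed.

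On the arrays labelled WAT, 0 of the 9 members passed, and 0 of the 44 tested genes of the other lists did. In this comparison 0.0705% of all probes passed (limma). The methods' t-test with adjustment called 0 of all probes in this comparison. Lpl read 96.0, 102.3 and 106.8 units in the cold, against 292.4, 293.8 and 122.8 units at room temperature. The groups did not overlap, and the difference was -1.01 ± 0.30 (95% interval -1.66 to -0.36, unadjusted p = 0.0055, adjusted p = 0.488). Fabp5 read 2.4, 1.5 and -2.7 units in the cold, none of them detected, and 12.4, 35.8 and 6.9 units at room temperature, of which 1 was detected (-0.61 ± 0.25, adjusted p = 0.752). The room temperature array with 35.8 units of Fabp5, replicate 2, also had the highest Adipoq signal of this label (65.7 units) and Ucp1 at 639.3 units.

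Fabp3 varied among the arrays labelled WAT more than between the temperatures, at 179.6, 33.6 and 103.7 units in the cold and 0.1, 133.6 and 11.8 units at room temperature (1.22 ± 0.86, adjusted p = 0.909). The 3 arrays above 100 units, replicates 1 and 3 in the cold and replicate 2 at room temperature, were also those with skeletal muscle markers that summed to 1456, 881.0 and 604.4 units. On the other 3 arrays these markers summed to 39.2, 7.7 and 22.4 units and 0 of their 12 probes were detected. Slc27a2 read 6360.6, 6016.0 and 2800.2 units in the cold and 5223.3, 5304.2 and 6020.6 units at room temperature (-0.21 ± 0.49, 95% interval -1.29 to 0.86). The low cold value belonged to replicate 3, the array on which exocrine pancreas markers summed to 66060 units, against at most 7118 units on the other arrays of this label.

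Whether cold acted differently between the tissue labels was tested as the difference of the differences. Slc27a2 passed in both comparisons with labelled liver. Its difference with cold was 6.06 ± 0.78 higher in BAT than in labelled liver (log2, adjusted p = 9.87e-04), where 1.82% of probes passed, and 5.56 ± 0.78 higher in labelled WAT than in labelled liver (adjusted p = 0.00175), where 1.47% passed. The differences with cold themselves were 0.29 in BAT, -0.21 in labelled WAT and -5.77 in labelled liver. The hepatocyte markers on the arrays labelled liver had a median difference of -5.37, and their part in these responses was not tested. Fabp5 also passed for labelled WAT against labelled liver, at -1.84 ± 0.40 (adjusted p = 0.0427), being lower in the cold on 3 of 3 arrays labelled WAT and higher on both labelled liver. As the probe was detected on none of the 3 cold arrays labelled WAT and on 1 of 3 at room temperature, the size is poorly determined, at -1.03 with an offset of 50 and -3.35 with no background correction, and both lost the call (adjusted p = 0.0669 and 0.0779). The call as first given was lost in 10 of 16 fits that left out an array, with adjusted p between 0.0238 and 0.234 over all of them. These comparisons share the arrays labelled liver.

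Between BAT and labelled WAT, 0 of 9 members differed in their response, where 0.0201% of probes passed (limma). The Ffar4 response was 1.81 ± 0.38 greater in BAT than in labelled WAT (95% interval 0.98 to 2.64, adjusted p = 0.154) and 1.33 ± 0.43 greater than in labelled liver (95% interval 0.40 to 2.25, adjusted p = 0.199). The rise of Ffar4 in BAT is therefore not shown to be particular to BAT.

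More members differed in level between the tissue labels than with cold. For Slc27a2, however, the difference with cold in labelled liver (-5.77) was larger in size than most of its differences between labels. In the cold, 8 of 9 members differed between BAT and labelled WAT, 7 higher and 1 lower in BAT, against 17.5% of all probes. At room temperature 6 differed, 5 higher and 1 lower in BAT, against 17% of probes. Labelled WAT differed from labelled liver in 7 members in the cold, 1 higher and 6 lower, against 19.1% of probes, and in 4 at room temperature, all lower, against 9.6%. BAT differed from labelled liver in 4 members in the cold, 3 higher, against 14.4%, and in 3 at room temperature, 2 higher, against 9.95%.

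Lpl was high on the arrays where fat cell markers were high. These 11 markers summed to 42020 to 48680 units on BAT arrays, 12430 to 17700 units on arrays labelled WAT and 60630 to 87370 units on those labelled liver. The mean Lpl signal was 9183 ± 1953 units in BAT in the cold and 7434 ± 787.4 units at room temperature (SD, n = 3), 101.7 ± 5.42 and 236.3 ± 98.3 units on the arrays labelled WAT (SD, n = 3), and 11280 and 11510 units on those labelled liver (n = 2). BAT exceeded labelled WAT by 6.26 ± 0.30 in the cold (76.9-fold, adjusted p = 1.23e-08) and by 5.00 ± 0.30 at room temperature (adjusted p = 9.53e-08). From high to low the order was labelled liver at room temperature, labelled liver in the cold, BAT in the cold, BAT at room temperature, labelled WAT at room temperature and labelled WAT in the cold. Neighbours among the first 4 overlapped, and the step from the fourth group to the fifth was 5.00 on the log2 scale. Gpihbp1 showed the same division with a smaller step, its brighter probe reading 965.4 to 1173.3 units in BAT in the cold, 783.1 to 971.8 units in BAT at room temperature, 303.6 to 473.5 units on all arrays labelled WAT and 649.1 to 1303.4 units on all labelled liver. Endothelial markers, the cells in which Gpihbp1 is made, summed to 3228 to 4546 units on BAT arrays, 1384 to 1580 units on arrays labelled WAT and 2930 to 6938 units on those labelled liver. Their part in the Gpihbp1 difference was not tested.

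Of the transport proteins, Slc27a1 followed the same division. It read 277.8 to 351.7 units in BAT in the cold and 374.2 to 560.5 units at room temperature, 22.7 to 40.7 units on arrays labelled WAT and 214.1 to 455.0 units on those labelled liver. BAT exceeded labelled WAT by 2.76 ± 0.22 in the cold and 3.47 ± 0.22 at room temperature (adjusted p = 1.25e-06 and 1.78e-07). BAT exceeded labelled liver at room temperature, by 1.03 ± 0.25 (adjusted p = 0.018), a call lost without replicate 1 or 3 of BAT or either array of labelled liver at that temperature (adjusted p between 0.06 and 0.119). The call was also lost with no background correction (adjusted p = 0.0532), with the authors' value table (0.0521) and without the arrays labelled WAT (0.0532). A block for the replicate number within a temperature lost it too (0.0734). In the cold the difference between BAT and labelled liver was -0.01 ± 0.25 (95% interval -0.56 to 0.53).

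Slc27a2 was the 1 member with its highest level on arrays labelled WAT. BAT minus labelled WAT was -2.90 ± 0.49 in the cold and -3.40 ± 0.49 at room temperature (adjusted p = 8.18e-04 and 2.31e-04). BAT minus labelled liver was 3.90 ± 0.55 in the cold and -2.16 ± 0.55 at room temperature (adjusted p = 4.39e-04 and 0.0239), so BAT was higher in the cold and lower at room temperature. The room temperature call was lost without replicate 1 of labelled liver (-1.62, adjusted p = 0.236) or replicate 2 of BAT (-1.75, adjusted p = 0.0895). This call was also lost with no background correction (adjusted p = 0.0839), with the authors' value table (0.0837) and without the arrays labelled WAT (0.0623). On BAT arrays Slc27a2 stood at 279.6 to 1063.6 units. Labelled WAT exceeded labelled liver by 6.80 ± 0.55 in the cold (adjusted p = 1.8e-06) and by 1.24 ± 0.55 at room temperature (adjusted p = 0.228).

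The sequence before the start of Fabp3 is shown because this member was far brighter on BAT arrays than on those labelled WAT, at chr4:130308488-130308737 on the + strand (RefSeq, GRCm38.p6). None of the 4 motifs was found in its window.
Fabp3: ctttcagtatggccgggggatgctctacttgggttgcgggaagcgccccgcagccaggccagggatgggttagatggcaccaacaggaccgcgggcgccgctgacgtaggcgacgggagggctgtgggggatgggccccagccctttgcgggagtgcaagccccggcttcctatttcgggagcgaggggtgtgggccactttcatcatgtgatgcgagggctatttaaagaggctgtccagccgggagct
BAT exceeded labelled WAT by 7.22 ± 0.86 in the cold and 7.97 ± 0.86 at room temperature (adjusted p = 3.96e-05 and 1.74e-05). The probe was detected on 1 of 3 arrays labelled WAT at room temperature, and that difference ranged between 7.04 and 9.15 over the alternatives that kept all arrays of both labels. Over labelled liver it was 4.46 ± 0.96 higher in the cold and 6.12 ± 0.96 higher at room temperature (adjusted p = 0.00705 and 9.18e-04). The cold value depended on which array of labelled liver was used, at 2.7 (adjusted p = 0.0981) without replicate 1 and 6.23 (adjusted p = 0.00101) without replicate 2. With all arrays kept, the call in the cold was also lost with no background correction (adjusted p = 0.05022) and with the authors' value table (0.05045). The SD of the 2 log2 values of labelled liver in the cold was 2.49, against 0.19 for BAT in the cold. On BAT arrays both brown adipocyte markers (52200 to 66710 units summed) and skeletal muscle markers (35500 to 72040 units) were high, and their shares in Fabp3 cannot be told apart from these arrays.

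Ffar4, at 257.5 to 1664.0 units on BAT arrays, read 8.0 to 15.9 units on the arrays labelled WAT in the cold and 7.7 to 23.1 units at room temperature, with 1 of 3 arrays detected at each temperature, and 208.5 and 343.2 units on those labelled liver in the cold and 174.8 and 237.0 units at room temperature. BAT was higher than labelled WAT by 5.25 ± 0.27 in the cold and 3.44 ± 0.27 at room temperature (adjusted p = 2.15e-08 and 1.04e-06). It was also higher than labelled liver in the cold, by 1.94 ± 0.30 (adjusted p = 8.68e-04), whereas the difference at room temperature was 0.62 ± 0.30 (95% interval -0.04 to 1.27, adjusted p = 0.319). Labelled WAT minus labelled liver was -3.31 ± 0.30 in the cold and -2.83 ± 0.30 at room temperature (adjusted p = 5.22e-06 and 7.77e-05).

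Fabp5 and Fabp4, both read by dim probes, separated labelled WAT from the other labels only in part. In the cold Fabp5 was higher in BAT than in labelled WAT, where no array detected it, by at least 2.71-fold (adjusted p = 9.07e-05), and the difference from labelled liver was 0.01 ± 0.28 (95% interval -0.60 to 0.63). At room temperature BAT and labelled WAT differed by 0.64 ± 0.25 (adjusted p = 0.126). The second Fabp5 probe was not detected on any array. Fabp4 was higher in BAT than in labelled WAT in the cold, by at least 1.38-fold (adjusted p = 0.0029). At room temperature the difference was 0.14 ± 0.17 and did not pass (adjusted p = 0.72). Labelled WAT against labelled liver did not pass for Fabp4 in the cold or at room temperature (limma, adjusted p = 0.263 and 0.927). For Fabp5 labelled WAT was lower in the cold, by at least 2.69-fold (adjusted p = 2.92e-04), but did not pass at room temperature (adjusted p = 0.921). With the Fabp4 probe at 32.9 units or less, these values do not give the level of its transcript.

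The genes nearest in pattern to each member were looked for among 5033 named genes, by the distance between centred means of the 6 groups, as a description. Those nearest to Fabp3 were Pvalb, Tnni2 and Atp2a1 (distances of 0.67, 0.98 and 1.22 on the log2 scale, against a span of 8.44 for Fabp3), all genes of fast skeletal muscle. Nearest to Slc27a2 were Kng1, which encodes the plasma protein kininogen, Cideb, a lipid droplet gene of liver, and Tmem25 (1.28 to 1.62, span 7.01). Lpl lay nearest to Lgals1, Ly6c1 and Pnpla3 (0.92 to 1.23, span 6.63), and Ffar4 to Rufy4, Hspb1 and Dusp4 (0.68 to 1.11, span 5.25). Slc27a1 lay nearest to H4c8, Mbp and Ebf2 (0.35 to 0.43, span 3.47), of which Ebf2 is a transcription factor of brown fat precursors. Gpihbp1 lay nearest to Mast2, Psap and Nrarp, and Fabp5 to Pex13, Sdcbp and Add3. Each pattern has 6 points, taken from the same arrays.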

How the data were processed

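RNA was amplified by the authors with an Illumina kit, hybridised to MouseWG-6 v1 arrays and read into GeneSpring GX. The deposited intensity values are linear signals with background subtracted, 38.0% to 38.1% of them below 0, and nearly the same distribution on every array. How this was done is not given in the sources used here. The deposited detection score, headed as a p-value, rises with the signal (Spearman rho of at least 0.995). The authors' log2 value table equals log2 of the signals with a floor of 5, minus the probe's median, to within 2.54e-06. As 57.5% of signals lay under that floor, it served as an alternative.

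Signals were corrected with normexp (offset of 16, controls inferred from the scores), quantile-normalized on the log2 scale and fitted per probe with limma 3.58.1 in R 4.3.3, with a mean for each of 6 groups over 16 arrays. P-values were adjusted by Benjamini and Hochberg over 39730 probes. No slide or scan batch was used, and the number of arrays limits the precision. The brightest probe stands for a gene. GEO's platform annotation named 1 gene for 25349 probes and none for 21294. A called fold is a lower bound if the probe was detected (score of at least 0.95) on none of a group's arrays, which are then set to the lowest detected signal of the array or their own, whichever was higher.

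All members were named with all probes. The other lists hold 55 genes of the pathway, named where they passed a cold comparison (at most 4 a list), and 8 sets of cell type markers, given by counts and sums. Members and lists were chosen with earlier results of these data known. Promoters are from RefSeq. The fits were tested on simulated data.

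The alternatives were an offset of 50, no background correction, scaling to the 75th percentile, the authors' table, no filter or a score of 0.95, a fit per tissue label, variances robust and with an intensity trend, a block for the replicate number, the t-test of the methods, a 2-fold minimum, the mean of a gene's probes, and leaving out the arrays labelled liver or each array in turn. Leaving out the arrays labelled WAT, and a block for the replicate number within a temperature, were chosen once values were known. A group of 1 liver array was assumed to vary like the other groups.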

Additional observations from a re-analysis of the deposited data

Results flagged for a closer look

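The response of Slc27a2 to cold differed between tissue labels by a test of the difference itself, at 6.06 ± 0.78 (log2, SE, adjusted p = 9.87e-04) for BAT minus labelled liver and 5.56 ± 0.78 (adjusted p = 0.00175) for labelled WAT minus labelled liver. Both kept their sign in all 16 fits that left out an array, at 5.47 to 6.66 and 4.96 to 6.15. On the arrays labelled liver 9 of 11 tested hepatocyte markers were also lower in the cold, with a median difference of -5.37. Their part in these responses was not tested. The response of Fabp5 differed for labelled WAT minus labelled liver, at -1.84 ± 0.40 (adjusted p = 0.0427), which held in 6 of those 16 fits. No cold array and 1 of 3 room temperature arrays labelled WAT detected its probe, and the difference was -1.03 with an offset of 50 and -3.35 with no background correction, the call being lost in both (adjusted p = 0.0669 and 0.0779). Groups of 2 or 3 arrays were too small for a search for single outlying arrays.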

How the results depend on the processing

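The number of members that passed changed by more than 1.5 times in these cases. For cold in BAT it was 0, not 1, with no background correction, with the authors' value table, with a fit for each tissue label, with the methods' t-test after adjustment and without the arrays labelled WAT, and it was 0 to 1 when each array was left out in turn. For cold in labelled liver it was 0, not 2, with a fit for each label and with the adjusted t-test, 1 with a 2-fold minimum and without the arrays labelled WAT, and 1 to 2 with arrays left out. For the response of labelled WAT minus labelled liver it was 1, not 2, with an offset of 50, no background correction, the authors' table and no filter, and 1 to 2 with arrays left out, and for BAT minus labelled liver 1 to 2. Between BAT and labelled liver at room temperature it was 1, not 3, with no background correction, the authors' table and without the arrays labelled WAT, and 1 to 3 with arrays left out, and in the cold 2 to 5. The causes were not tested. Over 765 differences with cold under the alternatives, 738 kept their side of the threshold, 23 fell below it and 4 passed it, and none that passed changed sign. Most of the 765 were of differences that had not passed in the main fit. Apart from the fits without single arrays, the call was kept in 8 of 13 alternatives for Ffar4 in BAT. In labelled liver it was kept in 8 of 12 for Cd36 and 10 of 12 for Slc27a2. Ffar4 in BAT was at 1.38 to 1.86 with an array left out (adjusted p of 0.0122 to 0.0616) and at 1.6 to 1.74 under the other alternatives (0.00234 to 0.376), and Slc27a2 in labelled liver at -6.37 to -5.18 and -6.58 to -4.92.

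The replicate numbers were not shown to pair the arrays. The deviations of equally numbered cold and room temperature arrays correlated at -0.0718 to 0.104, and those of different tissue labels at -0.133 to 0.137 in the cold and 0.093 to 0.174 at room temperature. With the replicate number as a block, 1 member passed for cold in labelled liver and 1 for labelled WAT minus labelled liver, since Cd36 (adjusted p = 0.0655) and Fabp5 (0.0624) were lost, and Ffar4 in BAT stayed at 0.0159. The numbers as a block within each temperature, added after the values were seen because tissues can share an animal, moved no count by more than 1.5 times. At room temperature Fabp5 then passed between BAT and labelled WAT (0.64, adjusted p = 0.0204) and between BAT and labelled liver (0.73, 0.0391), and Slc27a1 was lost for BAT minus labelled liver (1.03, 0.0734). That block leaves no test of cold itself. Over all probes, the methods' t-test with a 2-fold minimum called 241, 61 and 482 probes in BAT, labelled WAT and labelled liver without adjustment and 0, 0 and 2 after it. Dim probes limit Cd36, Fabp1, Fabp4 and Fabp5, and 2 arrays per group limit labelled liver.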
